A study of Mus musculus with 6 samples.

Results

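The genes described here are 10 genes of the ectodysplasin and hedgehog pathways, chosen by symbol: Eda, Edar and Edaradd of the ectodysplasin pathway, and Shh, Ihh, Ptch1, Smo, Gli1, Gli2 and Gli3 of the hedgehog pathway. All 10 were listed among the 23260 genes of the libraries, and 7 were among the 13610 genes with enough counts to be tested. Embryonic submandibular glands (eSMGs) of ICR mice at E14, with no allele or transgene named in the labels, were cultured for 6 h either without treatment (control) or in 50 µM AMD3100, which blocks the chemokine receptor CXCR4. Each of the 3 control and 3 AMD3100 libraries came from a tube that pooled up to 10 glands, and glands hold epithelium, mesenchyme, nerve and vessels together. A kit that reads the 3′ end of mRNA was used, so each transcript gives about 1 tag whatever its length, and reads per gene were deposited without normalization. The libraries held between 9051595 and 14393031 counts, and their medians were 11532946 for control and 11358828 for AMD3100. Levels are CPM, that is counts scaled to a common library total, after TMM normalization, which corrects the totals for differences in composition. A gene with 3 counts, taken as the floor of detection, stood between 0.208 and 0.331 CPM in a single library. Floors and intervals cover counting error only.

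Ectodysplasin, encoded by Eda, is a ligand of the tumor necrosis factor family that binds the receptor EDAR, and EDARADD links the receptor to NF-kB. The pathway is known for the formation of hair, teeth and exocrine glands, and mice that lack it have small submandibular glands. Hedgehog ligands bind PTCH1, which then no longer holds back SMO at the primary cilium, and GLI proteins carry the signal to the nucleus, with GLI2 acting mainly as an activator, GLI3 mainly as a repressor, and Gli1 being both a target and an activator. Both pathways are known to act on branching and lumen formation of the salivary epithelium.

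The bases before the start of the ligand gene and of its receptor gene are shown, since Eda and Edar had the largest log2 fold changes above and below 0 among the 7 genes tested. Motifs of the GLI and NF-kB factors were searched in these bases. Each sequence holds the 250 bases upstream of the gene from RefSeq on GRCm38.p6, 5′ to 3′ on the strand of the gene, in lower case, and capitals mark the only motif match, the short GLI motif CCACCCA read on the opposite strand as TGGGTGG. The upstream bases of Eda lie at chrX:99975356-99975605 on the plus strand, and those of Edar at chr10:58675697-58675946 on the minus strand.
Eda: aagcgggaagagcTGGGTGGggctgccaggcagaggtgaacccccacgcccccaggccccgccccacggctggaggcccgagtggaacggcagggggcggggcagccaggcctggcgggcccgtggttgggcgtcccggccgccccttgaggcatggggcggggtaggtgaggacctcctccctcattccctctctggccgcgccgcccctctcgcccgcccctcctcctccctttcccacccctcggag
Edar: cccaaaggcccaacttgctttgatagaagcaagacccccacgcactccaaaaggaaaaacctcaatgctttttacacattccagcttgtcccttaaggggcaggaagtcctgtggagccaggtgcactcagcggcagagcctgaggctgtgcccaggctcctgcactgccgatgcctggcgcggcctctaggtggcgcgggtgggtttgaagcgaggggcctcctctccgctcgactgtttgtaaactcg
Entries were found for 8 of the 10 genes and not for Shh and Gli1. The windows of Ptch1 (chr13:63565736-63565985) and Gli2 (chr1:119053620-119053869) lie inside the span of the gene, and that of Edaradd lies partly inside it. The bases before the outermost start were thus not searched for Ptch1 and Gli2, and only in part for Edaradd. The full GLI motif GACCACCCA, searched on both strands, was present in 74 of 32851 upstream windows of this length (0.225%) and in 0 of the 8 genes. Its part CCACCCA, which every full match also holds, was present in 2665 windows (8.11%) and only in Eda among the 8, beginning 237 bases before the start. The NF-kB consensus was present in 1281 windows (3.90%) and in 0 of the 8. A window without a match says only that these letters are not in it.

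Both replicate 3 libraries stood apart from the other 4. On the first principal component of log2 CPM over the genes tested, with 38.2% of the variance, control replicate 3 was at 84.8 and AMD3100 replicate 3 at 80.8, against values from -78.7 to -17.4 for the rest. The summed level of 12 skeletal muscle markers was 334, 321 and 1889 CPM in control replicates 1, 2 and 3, and 223, 183 and 2523 CPM in AMD3100 replicates 1, 2 and 3, which is 8.31-fold higher in the mean of the replicate 3 libraries, with Myog, the transcription factor of forming muscle fibers, the most abundant. Mesenchyme markers, led by Col3a1, were lower there, at 1982 and 1754 CPM against 4235 to 4330 CPM in the other 4 libraries. As each group holds 1 such library, edgeR's log2 fold changes with replicates 1 and 2 only, in which 13948 genes were tested, are given below beside those of all 6 libraries, while levels in CPM are from all 6 unless stated, and the part of muscle, mesenchyme and epithelium content in the results was not tested.

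No difference between the groups was called for any of the 7 genes tested. In edgeR's quasi-likelihood test with Benjamini-Hochberg adjustment, 0 of 7 had an adjusted p under 0.05, against 0 of all 13610 genes (0%), and 0 of 7 had an unadjusted p under 0.05, against 228 genes (1.68%). With the replicate number as a block in edgeR, 0 of 7 were called, against 3 of all genes (0.022%), and 0 of 7 had an unadjusted p under 0.05, against 907 (6.66%). DESeq2 and limma-voom also called 0 of the 7. The lowest unadjusted p in edgeR was 0.0999, for Edar, which in DESeq2 had an unadjusted p of 0.0455 and was the only 1 of the 7 under 0.05 there (adjusted p 1.0), against 479 of 18267 genes (2.62%). Fold changes of AMD3100 over control were below 0 on the log2 scale for 5 genes and above 0 for 2, with a median of -0.23 against 0.02 over all genes tested. The standard error (SE) of the 7 log2 fold changes had a median of 0.58, against 0.50 over all genes tested, and each of the 7 fold changes was less than 2 standard errors from 0. The adjusted p of each of the 7 was 1.0 and is not repeated below. In bulk samples of this kind, fewer cells of a type and less RNA per cell cannot be told apart.

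**Figure D1:**
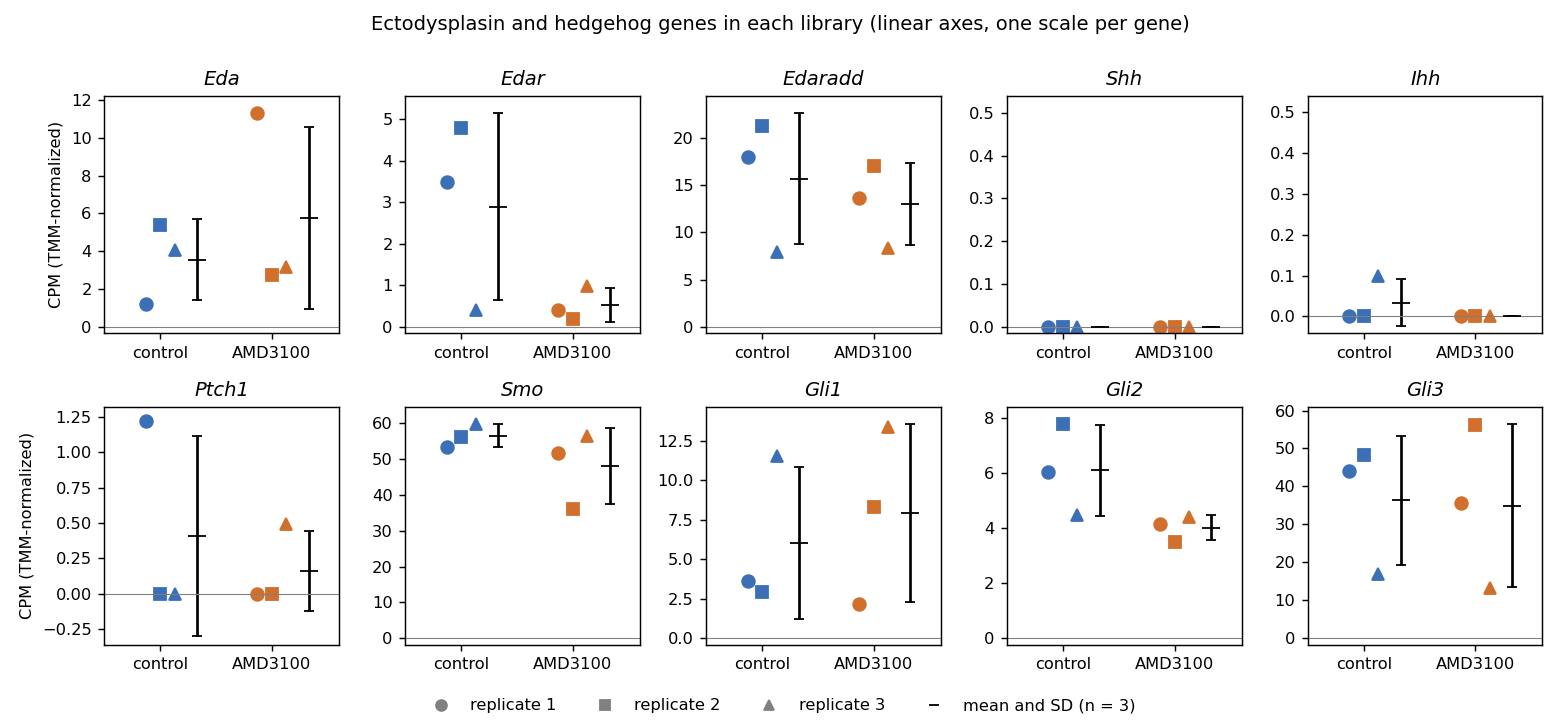
TMM-normalized CPM (linear axes, one scale per gene) of the 10 genes in control and AMD3100 libraries, with a point per library shaped by replicate number, and the mean and SD of 3 libraries beside them. The groups overlap for every gene tested except Gli2, and Shh is at 0 in all 6 libraries.

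Eda, the ligand gene (chrX:99975606-100400760), had 14, 74 and 41 counts in control replicates 1, 2 and 3, and 197, 30 and 26 counts in AMD3100 replicates 1, 2 and 3. These are 1.22, 5.38 and 4.08 CPM in control and 11.3, 2.76 and 3.19 CPM in AMD3100. The highest library was AMD3100 replicate 1, while the other AMD3100 libraries lay within the range of the controls. The mean was 3.56 ± 2.13 CPM in control and 5.76 ± 4.83 CPM in AMD3100 (SD, n = 3 each, exact two-sided permutation p = 0.7), and the log2 fold change was 0.70 (SE 0.84) in edgeR. Without AMD3100 replicate 1 it was -0.26, and with replicates 1 and 2 only it was 1.09. Same-numbered libraries differed by 3.21, -0.96 and -0.36 on the log2 scale.

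Edar, the receptor gene (chr10:58600780-58675696), had the largest fold change of the 7 and few reads. Its counts were 40, 66 and 4 in control, against 7, 2 and 8 with AMD3100, or 3.50, 4.8 and 0.398 CPM against 0.403, 0.184 and 0.981 CPM. Control replicates 1 and 2 were high, and control replicate 3 lay among the AMD3100 libraries, so the groups overlap. AMD3100 replicate 2, with 2 counts, was under the floor of detection. In total, 110 counts were found in control and 17 in AMD3100. The mean was 2.90 ± 2.26 CPM in control and 0.522 ± 0.412 CPM in AMD3100 (SD, n = 3 each, exact two-sided permutation p = 0.3), with a log2 fold change of -2.47 (SE 1.35) in edgeR. Within same-numbered libraries, AMD3100 minus control was -3.12 and -4.70 on the log2 scale for replicates 1 and 2, and 1.30 for replicate 3. With replicates 1 and 2 only, the log2 fold change was -3.77 and edgeR's adjusted p 0.879. The replicate block gave -2.36 (SE 2.0). The value stayed below 0 with any library left out, from -3.25 without AMD3100 replicate 3 to -1.89 without control replicate 2.

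Ligand and receptor counts were not proportional to each other. For each Edar count there were 0.35, 1.12 and 10.25 Eda counts in control replicates 1, 2 and 3, and 28.1, 15 and 3.25 in AMD3100. Control replicate 3 was thus within the range of the AMD3100 libraries. Edar had only 4 counts in control replicate 3, and 7, 2 and 8 in AMD3100 replicates 1, 2 and 3, so these ratios are imprecise. Over the 6 libraries, log2 CPM of Eda and Edar had a Pearson correlation of -0.30 and a Spearman correlation of 0.0857, of opposite sign.

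Edaradd, the adaptor gene (chr13:12471209-12520535), was the most abundant of the ectodysplasin genes. It had 205, 292 and 79 counts in control, against 236, 185 and 68 with AMD3100, or 17.9, 21.2 and 7.87 CPM against 13.6, 17.0 and 8.34 CPM. Both replicate 3 libraries were the lowest of their group and the other 4 were 2.15-fold higher on average. The mean was 15.7 ± 6.96 CPM in control and 13.0 ± 4.37 CPM in AMD3100 (SD, n = 3 each, exact two-sided permutation p = 0.6). The log2 fold change was -0.27 (SE 0.48) in edgeR, -0.36 with replicates 1 and 2 only, and 0.01 without control replicate 2.

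The hedgehog ligand and receptor genes were at or near the floor. Shh (chr5:28456840-28467101) had 0 counts in all 6 libraries, which allows a level of up to 0.0844 CPM over the control libraries together and 0.0862 CPM over the AMD3100 libraries. A transcript on the opposite strand of the same locus, 9530036O11Rik, also had 0 counts. Ihh (chr1:74945315-74951672) had 1 count in control replicate 3 and 0 in the other 5 libraries. Ptch1 (chr13:63508328-63573460), the receptor gene and itself a hedgehog target, had 14 counts in control replicate 1, 4 in AMD3100 replicate 3 and 0 in the other 4. Its 18 counts thus came from 1 library of each group, and no fold change is given for these 3 genes. All simulated reads from the last 300 bases of Shh, Ihh and Ptch1 in GENCODE vM1 matched only their own gene. The third ligand gene, Dhh, had 23 counts, all in the replicate 3 libraries.

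Smo (chr6:29735497-29761366), which encodes the membrane protein that passes the signal on, had the highest level of the 10 genes. It had 611, 773 and 601 counts in control, against 900, 392 and 460 with AMD3100, or 53.4, 56.2 and 59.8 CPM against 51.8, 36.1 and 56.4 CPM. AMD3100 replicate 2 was the lowest library, AMD3100 replicate 1 lay just below the controls and AMD3100 replicate 3 within their range. The mean was 56.5 ± 3.22 CPM in control and 48.1 ± 10.7 CPM in AMD3100 (SD, n = 3 each, exact two-sided permutation p = 0.3), with a log2 fold change of -0.23 (SE 0.29) in edgeR. All 3 differences between same-numbered libraries were below 0, at -0.05, -0.64 and -0.09 on the log2 scale, and the fold change ranged from -0.37 to -0.06 with 1 library left out. With replicates 1 and 2 only it was -0.32. The count of Smo is uncertain, as 63.6% of reads simulated from its end (7 of 11) had a second match elsewhere in the genome.

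Gli1, the transcription factor gene that hedgehog signalling itself turns on, had 41, 40 and 116 counts in control, against 37, 90 and 109 with AMD3100, or 3.58, 2.91 and 11.5 CPM against 2.13, 8.28 and 13.4 CPM. The highest library of each group was replicate 3, and the groups overlap. The mean was 6.01 ± 4.81 CPM in control and 7.92 ± 5.63 CPM in AMD3100 (SD, n = 3 each, exact two-sided permutation p = 0.7), with a log2 fold change of 0.39 (SE 0.80) in edgeR. It was 0.67 with replicates 1 and 2 only, 1.29 without control replicate 3 and -0.23 without AMD3100 replicate 3.

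The 3′ end of Gli1 overlaps that of a neighbour. Gli1 (chr10:127329882-127341579) and Arhgap9 (chr10:127321913-127329947) lie on opposite strands and share 66 bases at their 3′ ends on GRCm38.p6, and 55 exonic bases, all in the last 300 of Gli1, in GENCODE vM1. Whether strand was used in counting is not given in the sources used here, and without strand, reads from the shared bases cannot be told apart. Of 22 simulated end reads of Gli1, 1 (4.55%) had a match at another place of the genome. Arhgap9 had 62, 40 and 114 counts in control, against 43, 88 and 118 with AMD3100, so there were between 0.661 and 1.02 Gli1 counts per Arhgap9 count in each library. Both genes were high and low in the same libraries, with a Pearson correlation of log2 CPM of 0.978 over the 6 libraries, and Arhgap9 ranked 10 of 13609 genes by this measure. The log2 fold change of Arhgap9 was 0.34 (SE 0.75) in edgeR, and 0.33 with replicates 1 and 2 only.

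**Figure D2:**
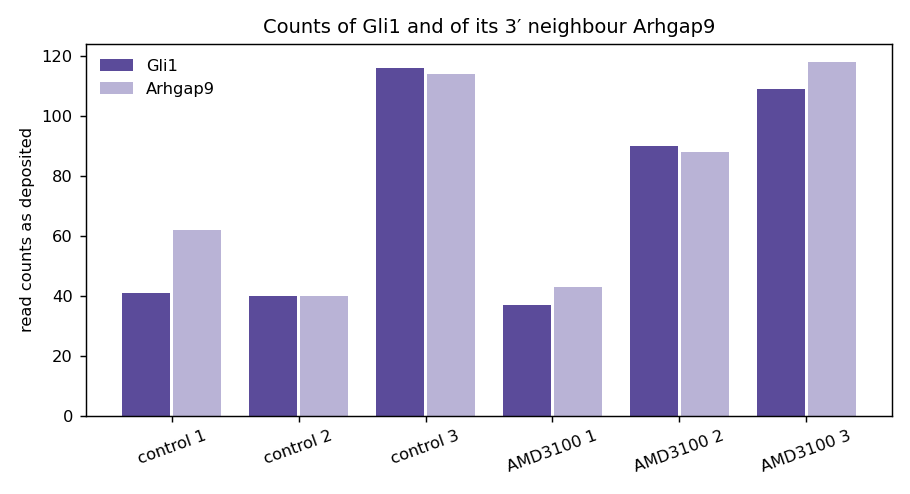
Read counts as deposited (vertical axis, starting at 0) of Gli1 and of Arhgap9, its neighbour on the opposite strand, in each of the 6 libraries. The counts of both genes follow each other, with 40 each in control replicate 2, for example, and 109 and 118 in AMD3100 replicate 3.

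Gli2 (chr1:118834061-119054405), the main activator among the GLI genes, was the only gene of the 7 whose groups did not overlap, against 1013 of 13610 genes tested (7.44%), or 4.17% for genes lower in AMD3100. It had 69, 107 and 45 counts in control, against 72, 38 and 36 with AMD3100, or 6.03, 7.78 and 4.48 CPM against 4.14, 3.50 and 4.41 CPM. The lowest control and the highest AMD3100 library, both of replicate 3, were next to each other. The mean was 6.10 ± 1.65 CPM in control and 4.02 ± 0.471 CPM in AMD3100 (SD, n = 3 each, exact two-sided permutation p = 0.1, the smallest that 3 against 3 can give). The log2 fold change was -0.60 (SE 0.58) with an unadjusted p of 0.329 in edgeR, and -0.57 with the replicate block. The differences between same-numbered libraries were -0.54, -1.15 and -0.02 on the log2 scale, and the fold change stayed between -0.77 and -0.39 with 1 library left out. With replicates 1 and 2 only it was -0.86.

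Gli3 (chr13:15463723-15730026), the main repressor, was the most abundant GLI gene. It had 503, 664 and 170 counts in control, against 619, 610 and 107 with AMD3100, or 44.0, 48.3 and 16.9 CPM against 35.6, 56.1 and 13.1 CPM. Both replicate 3 libraries were low, and the other 4 were 3.06-fold higher on average. The mean was 36.4 ± 17.0 CPM in control and 35.0 ± 21.5 CPM in AMD3100 (SD, n = 3 each, exact two-sided permutation p = 0.9), with a log2 fold change of -0.06 (SE 0.56) in edgeR. It was -0.02 with replicates 1 and 2 only, and 0.09, 0.20 and 0.32 without control replicate 1, control replicate 2 or AMD3100 replicate 3.

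In the make-up of the GLI counts, both replicate 3 libraries stood apart, with less Gli3 and more Gli1. Gli3 held 82.1%, 81.9% and 51.4% of the Gli1, Gli2 and Gli3 counts in control replicates 1, 2 and 3, and 85.0%, 82.7% and 42.5% in AMD3100. Gli1 held 6.69%, 4.93% and 35.0% in control and 5.08%, 12.2% and 43.3% in AMD3100, with the reservation on its reads given above. In AMD3100 replicate 3, where Gli1 and Gli3 were nearest, their 95% Wilson intervals were 37.3% to 49.4% and 36.5% to 48.6%. Between the groups, the exact two-sided permutation p of the share, with 3 libraries each, was 0.6 for Gli1, 0.4 for Gli2 and 1.0 for Gli3. The mean difference of AMD3100 minus control, 4.62 percentage points for Gli1 and -1.72 for Gli3, changed its sign when single libraries were left out. For Gli2 it was -2.91, and between -5.16 and -0.594 with 1 library left out, the latter without AMD3100 replicate 2. With replicates 1 and 2 only, it was 2.83 for Gli1, -4.71 for Gli2 and 1.88 for Gli3. Without Gli1, Gli2 held 12.1%, 13.9% and 20.9% of the Gli2 and Gli3 counts in control, against 10.4%, 5.86% and 25.2% with AMD3100 (15.6% ± 4.68 and 13.8% ± 10.1, SD, n = 3 each, exact two-sided permutation p = 0.8).

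**Figure D3:**
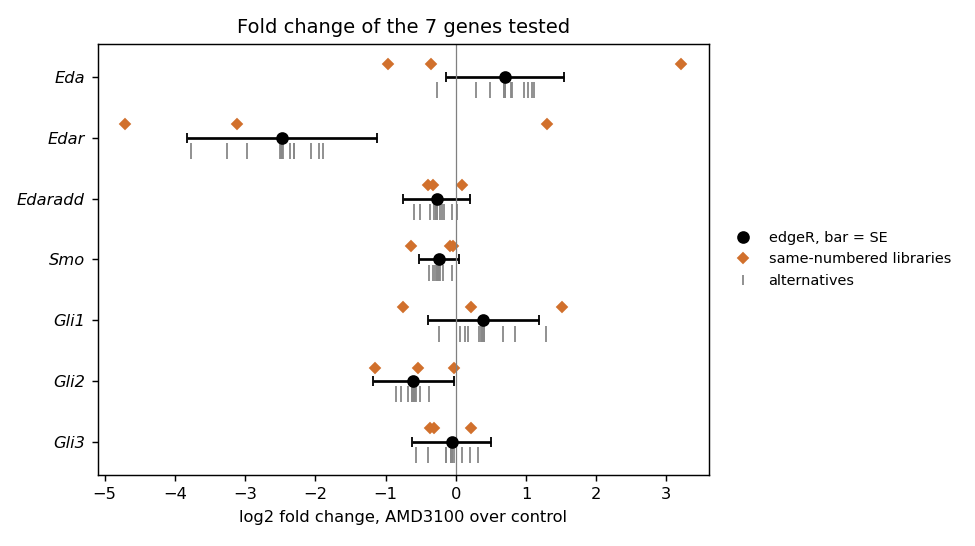
Log2 fold change of AMD3100 over control (horizontal axis) of the 7 genes tested: edgeR with its standard error (black), same-numbered libraries (diamonds) and the alternatives of normalization, filter, model and libraries (ticks). Edar lies farthest from 0 at -2.47, with 1 of its 3 pairs on the other side, and Smo and Gli2 have all 3 pairs below 0.

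The levels of the genes were ordered by their mean over the 6 libraries, in CPM of 3′ tags and not divided by length. The order was Smo at 52.3, Gli3 at 35.7, Edaradd at 14.3, Gli1 at 6.97, Gli2 at 5.06, Eda at 4.66, Edar at 1.71, Ptch1 at 0.286, Ihh at 0.0166 and Shh at 0 CPM. The mean ± SD ranges of every pair of neighbours in this order overlapped. Within libraries, Gli3 was above Edaradd and Edar above Ptch1 in 6 of 6, and Smo was above Gli3, Gli2 above Eda and Eda above Edar in 5 of 6. Edaradd was above Gli1 in 4 of 6, Gli1 above Gli2 in 3 of 6, namely both replicate 3 libraries and AMD3100 replicate 2, Ptch1 above Ihh in 2 of 6 and Ihh above Shh in 1 of 6.

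Edaradd and Gli3 were lower in both replicate 3 libraries than in each of the other 4, as were 21.1% of all genes tested, and Gli1 and Smo were higher in both, as were 23.1%, so that 2 of 7 in each direction was close to the share of all genes. Edaradd and Gli3, the adaptor and the repressor genes, had a Pearson correlation of log2 CPM of 0.948 and a Spearman correlation of 0.771 over the 6 libraries. Edar and Gli2, which were both highest in control replicates 2 and 1, had correlations of 0.956 and 0.829. These values are descriptions over 6 libraries that differ in depth and in tissue content.

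The genes whose log2 CPM was most like that of the most abundant gene of each pathway were listed over 13609 other genes and 6 libraries. For Edaradd these were Snapin, A530050N04Rik and Cacul1, with Pearson correlations of 0.997, 0.996 and 0.994. For Smo these were Lztfl1, Ampd3 and Kcne1l, with 0.997, 0.997 and 0.996. As the highest of 13609 values over only 6 libraries, these correlations are high by choice. The reservation on the reads of Smo given above holds here too.

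The other genes of the ectodysplasin pathway were counted in 3 lists, which together held 33 genes, 27 of them tested. In edgeR, 0 of 27 were called and 1 had an unadjusted p under 0.05, against 1.68% of all genes tested, or 2 (Ctgf and Ccnd1) with the replicate block, against 6.66%. Of the 27, 13 had a log2 fold change above 0 and 14 below, with a median of -0.04 against 0.02 over all genes tested, and 1 (3.70%) had groups that did not overlap, against 7.44% of all genes tested. With 29 genes tested in replicates 1 and 2 only, 13 were above 0 and 16 below, with a median of -0.05. Of the related receptor genes, Eda2r, which encodes the receptor of the other ectodysplasin isoform, was at 17.7 ± 5.20 CPM in control and 20.8 ± 2.09 CPM in AMD3100, and Tnfrsf19 at 14.8 ± 7.15 and 19.1 ± 8.71 CPM (SD, n = 3). Both were counted at higher levels than Edar in all 6 libraries.

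Of 19 genes for ectodysplasin processing and NF-kB transduction, 17 were tested, 10 were above 0 and 7 below, with a median log2 fold change of 0.06, and 0 had groups that did not overlap. The median with replicates 1 and 2 only was -0.04. The most abundant was Nfkbia, the inhibitor that NF-kB itself induces, at 261 ± 28.1 CPM in control and 271 ± 21.3 CPM in AMD3100, with a log2 fold change of 0.06 (SE 0.26), or 0.0033 with replicates 1 and 2 only. Tab2, which bridges the receptor complex to the kinase TAK1, was at 131 ± 36.6 and 146 ± 33.4 CPM. Rela, the NF-kB subunit, was at 70.3 ± 51.0 and 76.3 ± 45.2 CPM. Rela was highest in both replicate 3 libraries, at 129 and 128 CPM against 39.9 to 52.3 CPM in the others.

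Of 13 target genes of ectodysplasin or NF-kB, 9 were tested, 2 were above 0 and 7 below, with a median log2 fold change of -0.35. Ctgf, which encodes a secreted matrix protein of connective tissue, was the only one whose groups did not overlap. It had 167, 78 and 82 counts in control, against 23, 35 and 28 with AMD3100. It stood at 9.48 ± 4.61 and 2.66 ± 1.16 CPM (SD, n = 3). Its log2 fold change was -1.84 (SE 0.65) with an unadjusted p of 0.0207 and an adjusted p of 1.0 in edgeR, and all 3 same-numbered pairs were lower in AMD3100. It was -2.17 with replicates 1 and 2 only (SE 0.87), and the median of the list was -0.18. Ccnd1, a cyclin of the first gap phase, was at 294 ± 56.7 and 228 ± 90.5 CPM, and Sostdc1, a secreted inhibitor in ectodermal organs, at 41.6 ± 26.8 and 37.7 ± 24.1 CPM. Dkk4 and Fgf20, ectodysplasin targets of hair and tooth placodes, had 0 counts in all 6 libraries.

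The other genes of the hedgehog pathway were counted in 5 lists, with 54 genes, 43 of them tested. In edgeR, 0 of 43 were called and 0 had an unadjusted p under 0.05, against 1.68% of all genes tested. The replicate block gave 3 such genes (6.98%), Gpc3, Ccnd1 and the scaffold gene Dlg5, against 6.66% of all genes tested, with Dlg5 named after its values were seen. Of the 43, 21 were above 0 and 22 below, or 20 and 23 with replicates 1 and 2 only (median -0.08), the median log2 fold change was -0.0050, and 3 (6.98%) had groups that did not overlap. All 3, Gpc3, Mycn and Bmp2, were lower in AMD3100. Of all genes tested, 7.44% had groups that did not overlap in either direction, and 4.17% had such groups with lower values in AMD3100. The 6.98% was thus close to the share of all genes.

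Of 9 genes for the supply of hedgehog ligands, 5 were tested, with a median log2 fold change of 0.25. Gpc3, a glypican that binds hedgehog ligands and keeps them from their receptor, was at 192, 188 and 137 CPM in control and 121, 120 and 87.9 CPM in AMD3100. The lowest control library stood above the highest AMD3100 library, and both groups had their lowest value in replicate 3. Its log2 fold change was -0.65 (SE 0.29) with an unadjusted p of 0.0526 and an adjusted p of 1.0 in edgeR, and the adjusted p with the replicate block was 0.235. With replicates 1 and 2 only it was -0.66 (SE 0.15), with an adjusted p of 0.719 in edgeR, and the median of the list was 0.27. Ext1, a heparan sulfate polymerase, was at 76.4 ± 21.8 and 63.2 ± 26.1 CPM, and Scube1, a secreted protein, at 40.5 ± 7.21 and 48.1 ± 12.6 CPM (SD, n = 3).

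Of 6 receptors and binders other than Ptch1, 4 were tested, with a median log2 fold change of 0.21, or 0.20 with replicates 1 and 2 only. Boc was at 0.00039, and turned to -0.08 in the latter, where the other 3 stayed above 0. Coreceptors of the ligands were counted at much higher levels than Ptch1. Gas1 was at 117 ± 72.4 CPM in control and 127 ± 78.9 CPM in AMD3100, Cdon at 63.5 ± 11.5 and 79.0 ± 15.2 CPM, and Boc at 35.3 ± 18.9 and 35.2 ± 12.5 CPM (SD, n = 3). Cdon and Gas1 were higher in AMD3100 in all 3 same-numbered pairs, with log2 fold changes of 0.31 (SE 0.29) and 0.12 (SE 0.61), or 0.28 and 0.11 with replicates 1 and 2 only.

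Of 18 genes for transduction below Smo, 16 were tested, 8 above 0 and 8 below, and of 10 genes for ciliary transport all were tested, 5 above 0 and 5 below, with medians of 0.01 and 0.03. The medians with replicates 1 and 2 only were 0.01 and -0.23. Prkaca, the catalytic subunit of the protein kinase that phosphorylates GLI proteins, was the most abundant of the former at 337 ± 322 and 336 ± 319 CPM. Its replicate 3 libraries were at 707 and 704 CPM, and the other 4 at 131 to 172 CPM. Prkar1a, a regulatory subunit of the same kinase, was at 257 ± 75.2 and 244 ± 23.3 CPM, and Gsk3b, a kinase that acts on the same proteins, at 235 ± 111 and 253 ± 85.1 CPM. Kif3a, a motor of ciliary transport, held 74.0% of the summed level of the ciliary list, and Kif3b and Arl13b, a further motor and a ciliary GTPase, had log2 fold changes of 0.12 and 0.34 with standard errors of 0.28 and 0.38, or 0.09 and 0.21 with replicates 1 and 2 only. There, Kif3a turned from 0.11 to -0.14 and Prkar1a from -0.07 to 0.13.

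Of 13 hedgehog target genes, 8 were tested, 1 above 0 and 7 below, with a median log2 fold change of -0.30. Mycn, a transcription factor of dividing progenitors, had 38, 75 and 33 counts in control, against 39, 1 and 20 with AMD3100. Its log2 fold change was -1.33 (SE 1.11). Its lowest library, AMD3100 replicate 2, had 1 count, while AMD3100 replicate 1 was the deepest library, and its 39 counts came to a lower level than the 38 of control replicate 1. Bmp2, a ligand of the bone morphogenetic protein family, was at 7.92 ± 0.914 CPM in control and 4.86 ± 1.30 CPM in AMD3100 (SD, n = 3), with a log2 fold change of -0.70 (SE 0.51). The values were -1.89 for Mycn and -0.64 for Bmp2 with replicates 1 and 2 only, and the median of the list was -0.27. Ccnd2 and Osr2 had the highest levels beside Ccnd1, at 709 ± 256 and 829 ± 191 CPM for Ccnd2 and 87.2 ± 19.0 and 81.7 ± 25.4 CPM for Osr2. Hhip, Foxf2, Foxl1 and Foxc2, more specific targets, were below the count filter.

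**Figure D4:**
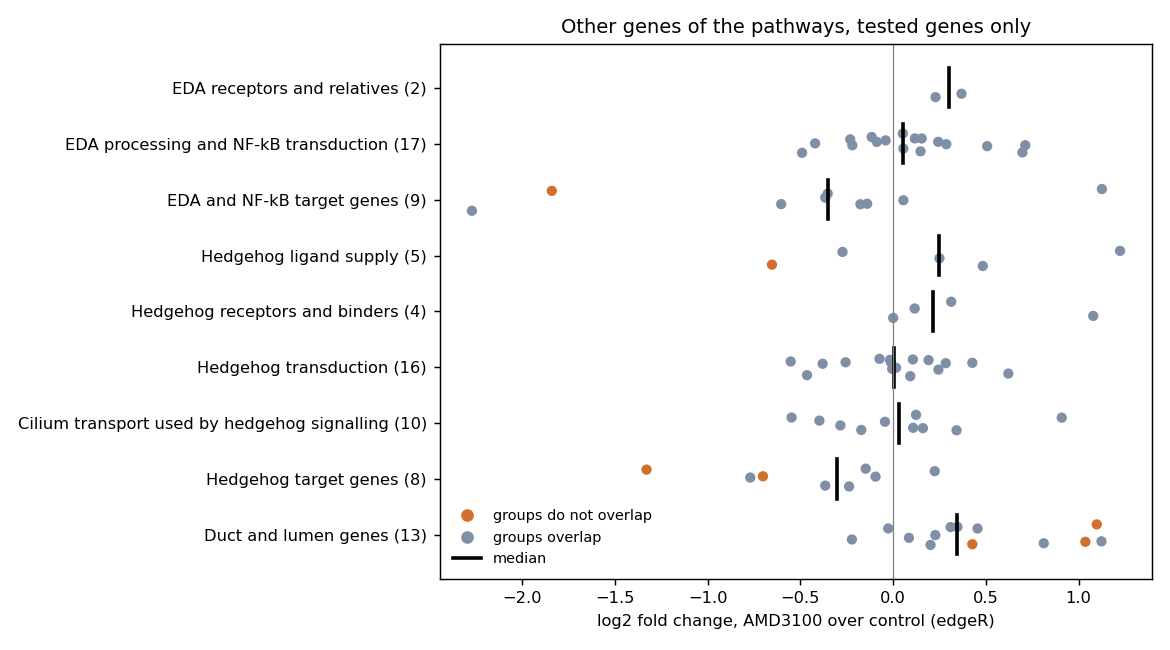
Log2 fold change of AMD3100 over control in edgeR (horizontal axis) of the tested genes of the pathway lists, with a point per gene, the median as a bar and genes whose groups do not overlap in orange. The medians lie between -0.35 for the ectodysplasin and NF-kB targets and 0.35 for the duct and lumen genes.

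Duct and lumen genes were counted beside the pathways, since both pathways act on the forming ducts. All 13 were tested, 0 were called, 11 were above 0 and 2 below, with a median log2 fold change of 0.35. For 3 (23.1%) the groups did not overlap, all with higher values in AMD3100. The list holds Krt7 and Krt19, which the study had already reported as higher in AMD3100 in these same libraries. The counts of this list are therefore not independent of that report. Of all genes tested, 7.44% had groups that did not overlap in either direction, and 3.28% had such groups with higher values in AMD3100. Krt7, a keratin of ducts, was at 9.79, 10.5 and 8.56 CPM in control and 29.1, 19.4 and 13.1 CPM in AMD3100, with a log2 fold change of 1.1 (SE 0.41, edgeR, unadjusted p 0.0244, adjusted p 1.0). Prom1, a protein of apical membrane protrusions, was at 12.7, 19.5 and 16.9 CPM in control and 31.5, 46.9 and 22.3 CPM in AMD3100, and its log2 fold change was 1.04 (SE 0.38, edgeR, unadjusted p 0.0229, adjusted p 1.0). Cldn4, a tight junction protein, was at 45.5 ± 7.73 and 61.2 ± 9.51 CPM (SD, n = 3), and its log2 fold change was 0.43 (SE 0.28). For each of these 3 genes every AMD3100 library was above the controls. The replicate block in edgeR gave unadjusted p-values of 0.0134 for Krt7, 0.00569 for Prom1, 0.0367 for Cldn4 and 0.0118 for Tfcp2l1. No other gene of the list was under 0.05 there, against 6.66% of all genes tested, and 0 were called. Tfcp2l1, named after its values were seen, had overlapping groups and a log2 fold change of 0.81 (SE 0.39) without the block. With replicates 1 and 2 only, the log2 fold changes were 1.26 for Krt7, 1.27 for Prom1 and 0.38 for Cldn4, with 0 genes called, and the median of the list was 0.19. Pard3, Ezr and Krt18, genes of polarity, the apical cytoskeleton and simple epithelium, were the most abundant, with overlapping groups and log2 fold changes of 0.23, 0.31 and 0.20, or 0.17, 0.26 and -0.03 with replicates 1 and 2 only, where Krt18 thus changed its sign.

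The tissue content of the tubes was read from marker lists, of which 0 genes were called in edgeR. The summed level of 10 epithelium markers was 1967, 1921 and 1333 CPM in control and 2336, 2006 and 3293 CPM in AMD3100, above the controls in each AMD3100 library (exact two-sided permutation p = 0.1, the smallest possible with 3 against 3). Krt15, a keratin of basal and progenitor cells, held 60.5% of this sum, 6 of the 10 markers had a log2 fold change above 0, and Cdh1, the epithelial cadherin, was the only one whose groups did not overlap, at 283 ± 65.1 and 414 ± 83.3 CPM. Over all marker lists, 4 of 77 genes tested (5.19%) had groups that did not overlap, against 7.44% of all genes tested. With the replicate block, 9 of the 77 (11.7%) had an unadjusted p under 0.05, against 6.66% of all genes tested, and these were Cdh1, Krt14, Krt15, Twist1, Myod1, Myog, Fabp7, Hbb-bt and Hbb-bs. The part of epithelium content in the values of the duct and lumen genes, Edar and Edaradd was not tested. Relative to the mean log2 CPM of the epithelium markers, a scaling chosen after seeing the data, the log2 fold change was -2.05 for Edar, -0.43 for Edaradd, -0.48 for Smo, -0.77 for Gli2, -0.37 for Gli3, 0.38 for Eda and 0.10 for Gli1. These values are differences of mean log2 CPM and not edgeR's fits, so scaling and fit changed together. The scaling moves all genes alike, so the distance of a gene from its edgeR value, as for Edar, is not the effect of the scaling alone. The sum of the epithelium markers with replicates 1 and 2 only was 1944 CPM in control and 2171 CPM in AMD3100 on average. There, 4 of the 10 markers were above 0, with a median of -0.02, and the log2 fold change was 0.20 against 0.55 with all 6 libraries for Cdh1, and 0.21 against 0.72 for Krt15.

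Mesenchyme markers summed to 3513 ± 1327 CPM in control and 3442 ± 1463 CPM in AMD3100 (SD, n = 3 each, exact two-sided permutation p = 0.9), with 3 of 10 above 0. Relative to their mean log2 CPM, also chosen after seeing the data, the log2 fold change was -1.68 for Edar, -0.06 for Edaradd, -0.11 for Smo, -0.40 for Gli2, 0.00085 for Gli3, 0.75 for Eda and 0.47 for Gli1. These too are differences of mean log2 CPM and not edgeR's fits, so scaling and fit changed together. Gli3 thus changed its sign, but the scaling moves all genes alike, and a value this near 0 can cross it for that reason. Cartilage markers summed to 401, 450 and 230 CPM in control and 480, 471 and 220 CPM in AMD3100, and Sox9, which gland epithelium expresses too, held 74.8% of them, while the collagen genes of cartilage Col2a1 and Col9a1 were at 24.8 and 34.6 CPM in control and 18.8 and 35.4 CPM in AMD3100, and Col10a1, Col11a2 and Matn1 had 0 counts in 5 of 6 libraries. The summed mesenchyme and cartilage markers, Gli3 and Edaradd were all low in the replicate 3 libraries. So were single epithelium markers, as 6 of 10 were lower in both replicate 3 libraries than in each of the others, among them Krt5 at 18.5 and 28.1 CPM against 86.6 to 107 CPM and Krt8 at 16.6 and 17.0 CPM against 60.9 to 76.9 CPM, while Krt15, the most abundant, was at 887 and 2468 CPM. Krt5 and Krt8 are named here after their values were seen.

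Neuron markers, led by Prph, summed to between 683 and 1437 CPM, glia markers to between 40.6 and 138 CPM with Sox10, which gland epithelium also expresses, at 73.1%, and endothelium markers, led by Kdr, to between 16.1 and 46.8 CPM. Leukocyte markers, led by C1qa, summed to 106, 71.7 and 254 CPM in control and 95.9, 96.4 and 179 CPM in AMD3100, and were 2.34-fold higher in the replicate 3 libraries. Erythroid markers, led by Hba-a1, summed to 7243, 19395 and 11346 CPM in control and 7001, 10997 and 11900 CPM in AMD3100, with 0 of 9 above 0. Markers of skin and oral surface epithelium, with Krt4 at 87.2%, summed to between 58.1 and 245 CPM. None of these sums separated the groups, and the only markers among them whose groups did not overlap were Fabp7 of glia, with a log2 fold change of -1.82 (SE 0.58), and C1qb of leukocytes, with -0.22 (SE 0.40). For mesenchyme, the same held of Osr1, with -0.23 (SE 0.26). The values with replicates 1 and 2 only were -1.41, -0.21 and -0.31. With Cdh1, these genes are the 4 of 77 markers tested (5.19%) whose groups did not overlap, against 7.44% of all genes tested. Above 0 on the log2 scale were 5 of 8 neuron, 2 of 5 glia, 1 of 5 endothelium, 3 of 7 leukocyte, 7 of 11 skeletal muscle, 3 of 7 cartilage and 2 of 6 surface epithelium markers among those tested. Several of these counts turned without the replicate 3 libraries. They were then 1 of 8 neuron, 2 of 5 glia, 1 of 5 endothelium, 4 of 7 leukocyte, 1 of 10 skeletal muscle, 5 of 7 cartilage, 1 of 6 surface epithelium and 0 of 8 erythroid markers, and the sum of the muscle markers was 328 CPM in control and 203 CPM in AMD3100.

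**Figure D5:**
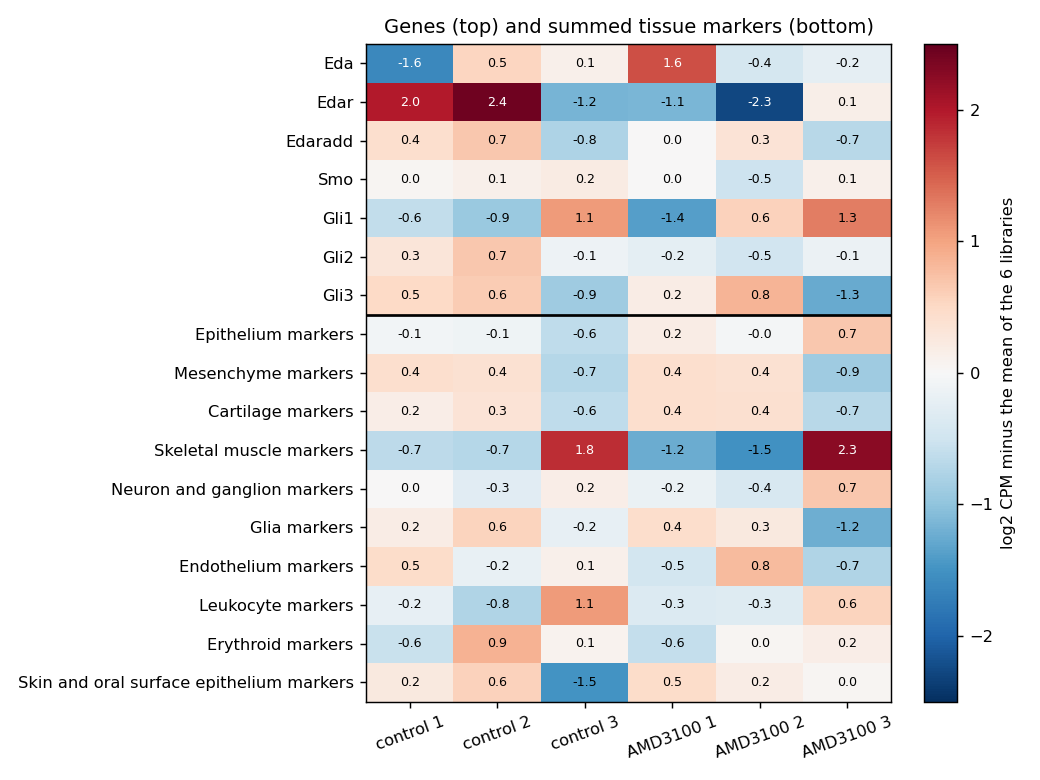
Log2 CPM in each library minus the mean of the 6 libraries, for the 7 genes tested (top) and for the summed level of each tissue marker list (bottom). Skeletal muscle is high and mesenchyme low in both replicate 3 libraries, where Gli1 is high and Edaradd and Gli3 are low.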

How the data were processed

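The values are the counts of reads that the authors deposited for each symbol and library. The submitters' processing notes name Bowtie2, edgeR and the build mm10, and the methods of the study give 50 bp single reads. Whether replicate tubes held glands of separate litters is not given, so p-values measure the spread between tubes. Of 23282 lines, 22 repeats were left out. edgeR 4.0.16 was run with TMM, filterByExpr on group, glmQLFit and glmQLFTest, with group as the only term and Benjamini-Hochberg adjustment over 13610 genes. Deviations of same-numbered libraries from their group means had correlations of 0.185, 0.171 and 0.584 across genes, all above 0.1, so the labels' numbers were taken as pairs in a block. Control 2 with AMD3100 1 and control 1 with AMD3100 2 had 0.198 and 0.146, so the check did not tell replicates 1 and 2 apart. The pathway genes and lists were chosen with earlier results of these data known. Named genes were all 10 pathway genes, the 3 most abundant of each list and up to 5 of each list with groups that did not overlap. Rn45s took 16.2% to 32.5% of counts. Alternatives were DESeq2 1.42.0, limma-voom 3.58.1, other scalings and filters, the block and libraries left out. Values of lists, marker sums and GLI shares with replicates 1 and 2 only were chosen after seeing the data. SEs were derived from each coefficient and its F statistic. Simulated reads of 50 bases from 3′ ends were aligned with minimap2 2.31-r1302 to NCBIM37. Positions, strands and upstream sequences are from RefSeq on GRCm38.p6. The fits were tested on simulated data. The pass mark was set only at a spread between libraries below that of these data. What the fits recover at the real spread is not given here.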

Additional observations from a re-analysis of the deposited data

How the results depend on the processing

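Over 16 alternatives and the scalings by markers, 124 log2 fold changes of the 7 genes were computed, of which 117 kept their direction. Of the 124, 110 had a test, with 0 called and a lowest adjusted p of 0.852, and the 14 scaled by markers had none. Those 14 are differences of mean log2 CPM and not edgeR's fits, and each scaling moved all genes alike. Edar gave no value with at least 10 counts in every library or with Rn45s left out, where its counts did not pass the filter. The direction turned for Eda (-0.26 without AMD3100 replicate 1), Edaradd (0.011 without control replicate 2), Gli1 (-0.23 without AMD3100 replicate 3) and Gli3 (0.09 without control replicate 1, 0.20 without control replicate 2, 0.32 without AMD3100 replicate 3, and 0.00085 relative to the mesenchyme markers). With a library left out, the values ranged from -0.26 to 1.12 for Eda, from -0.59 to 0.011 for Edaradd, from -0.23 to 1.29 for Gli1 and from -0.57 to 0.32 for Gli3. The cause was not tested. The Gli1 share difference turned from 4.62 to -0.690 percentage points without control replicate 2 and to -6.92 without AMD3100 replicate 3, and that of Gli3 from -1.72 to 3.43, 3.34 and 12.1 without control replicate 1, control replicate 2 and AMD3100 replicate 3 (range -11.9 to 12.1, and -6.92 to 14.4 for Gli1), and to 1.88 with replicates 1 and 2 only.

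Over all genes, edgeR called 0, edgeR with the replicate block 3 (Txnip, Snrnp70 and Mt2) and DESeq2 5 (Ccdc53, Ccl11, Txnip, Pmpcb and Smim14), none on a list here. The pairing changed no other call. At an unadjusted p under 0.05, the count was 228 in edgeR, 907 with the block (6.66% of the genes tested), 479 in DESeq2, 798 with replicates 1 and 2 only, 547 without control replicate 3 and 451 without AMD3100 replicate 3. Without Rn45s in the totals, mean levels were 19.9 CPM for Edaradd, 70.1 for Smo and 6.89 for Gli2. Where an arm held 2 libraries, the spread was pooled over both groups. The 110 and 17 counts of Edar and the 14 and 4 of Ptch1 limit the precision of their values, and the biological coefficient of variation over all genes was 0.579.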
